A study of Rattus norvegicus with 20 samples.

Results

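Microglia are the resident macrophages of the brain, and 40 genes that microglia and related macrophages express were followed here across the hippocampus of Gunn rat pups. The members were found by their symbol in the deposited count table. Of the 40 genes listed, 38 had a row among the 32883 genes of the table, 1 row each, and all 38 passed the low-count filter that left 15272 genes for testing. Itgam and Dock2 were not matched to a row and were not analysed here.

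Gunn rats carry a defect of Ugt1a1, the liver enzyme that conjugates bilirubin for excretion. Heterozygous pups (Nj, spelled Jj in some labels) are not jaundiced and homozygous pups (jj) are. PolyA RNA of the hippocampus was sequenced at postnatal day 6 in 20 pups, 5 in each of 4 groups: untreated Nj, untreated jj, Nj given phototherapy and jj given phototherapy. Phototherapy was LED light from day 4, given for 12 h in total in alternating periods of 3 h on and 3 h off. All pups were of the Gunn strain, so the untreated Nj controls carry 1 mutant allele too. The labels do not say whether pups of a group came from different litters, so the p-values measure the spread between these libraries.

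Microglia settle in the brain before birth and depend on the growth factor receptor Csf1r, which binds the ligands Csf1 and Il34. They sense nucleotides from damaged or active cells through P2ry12, take up dying cells and synapses with the help of complement C1q, Mertk and Trem2, and break the cargo down in lysosomes. The transcription factors PU.1 (Spi1) and Irf8 set up the macrophage programme, and PU.1 binds DNA at a purine-rich core, GAGGAA. Macrophages at the borders of the brain share many of these genes, while P2ry12 and Tmem119 are typical of microglia.

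Promoters are shown for the members that passed the test below or had the lowest p in a comparison, as far as the RefSeq promoter table (build GRCr8) holds them. Each runs from 250 bases before the transcription start to 50 bases after it, on the strand of the gene. Capitals mark GAGGAA on either strand (TTCCTC where it lies on the opposite strand) and, in Ctss and Adgre1, also a pair of GAAA with any 2 bases between them, a core of interferon response elements that IRF factors bind. The windows are chr2:185775146-185775445 on the plus strand for Ctss, chrX:11785787-11786086 on the minus strand for Gpr34 and chr9:2329190-2329489 on the plus strand for Adgre1. Those of C1qb and Irf8 are chr5:154407778-154408077 on the minus strand and chr19:65699034-65699333 on the plus strand.
Ctss: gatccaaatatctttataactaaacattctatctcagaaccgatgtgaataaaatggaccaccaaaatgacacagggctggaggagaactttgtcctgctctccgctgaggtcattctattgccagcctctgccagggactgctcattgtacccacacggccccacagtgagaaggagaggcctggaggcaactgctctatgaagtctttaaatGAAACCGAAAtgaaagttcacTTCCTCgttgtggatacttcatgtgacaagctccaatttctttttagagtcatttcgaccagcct
Gpr34: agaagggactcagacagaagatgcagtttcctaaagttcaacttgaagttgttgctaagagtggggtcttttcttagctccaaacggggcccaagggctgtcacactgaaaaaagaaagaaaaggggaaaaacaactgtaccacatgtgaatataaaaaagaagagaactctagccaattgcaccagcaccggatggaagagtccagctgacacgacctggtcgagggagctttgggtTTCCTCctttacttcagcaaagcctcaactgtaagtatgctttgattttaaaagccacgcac
Adgre1: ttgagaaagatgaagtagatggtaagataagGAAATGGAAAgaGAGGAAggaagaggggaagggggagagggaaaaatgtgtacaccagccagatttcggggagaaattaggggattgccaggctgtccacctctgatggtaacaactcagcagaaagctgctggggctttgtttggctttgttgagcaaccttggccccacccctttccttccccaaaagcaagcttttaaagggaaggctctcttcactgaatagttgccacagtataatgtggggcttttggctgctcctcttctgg
C1qb: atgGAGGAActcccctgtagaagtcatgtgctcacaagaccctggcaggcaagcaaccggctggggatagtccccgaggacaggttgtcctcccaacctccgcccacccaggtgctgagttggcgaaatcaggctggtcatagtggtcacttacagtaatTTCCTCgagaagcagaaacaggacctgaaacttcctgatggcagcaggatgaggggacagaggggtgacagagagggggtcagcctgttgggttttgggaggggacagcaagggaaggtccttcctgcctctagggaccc
Irf8: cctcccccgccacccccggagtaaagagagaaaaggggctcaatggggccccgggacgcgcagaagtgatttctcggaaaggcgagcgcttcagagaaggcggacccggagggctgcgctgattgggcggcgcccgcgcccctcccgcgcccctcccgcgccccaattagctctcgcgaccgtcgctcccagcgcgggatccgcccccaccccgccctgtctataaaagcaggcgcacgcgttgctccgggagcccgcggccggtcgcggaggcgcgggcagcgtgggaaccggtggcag

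Counted in bases from the transcription start, the GAAA pair of Ctss begins at -36 and its GAGGAA match at -15. The Gpr34 match begins at -12, while Adgre1 holds both motifs further upstream, at -219 and -207. C1qb has matches at -247 and -90, and the Irf8 window holds neither motif. Of the 40 genes listed 26 have a promoter in the table, and of these 17 (65.4%) hold GAGGAA on either strand, against 27.6% of all 33469 promoters of that length. The longer form GAGGAAGT was found in 6 members, Cd37, Cd53, Ctss, Cyth4, Inpp5d and Vav1 (23.1%, against 2.42% of all promoters), and every GAGGAAGT match also counts as a GAGGAA match. The GAAA pair was found in 2 members, Ctss and Adgre1 (7.69%, against 3.92%). These matches describe letters in a window and say nothing of binding. No promoter of P2ry12, Aif1, Fcgr2b or Itgal is shown.

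Library totals ran from 16882652 to 27112749 counts. Neuronal genes marked every library as brain tissue: all 12 of a fixed list were measured, Snap25 and the glutamate transporter Slc17a7 among them, with summed levels of 9451 to 11794 CPM (read counts scaled to the library total). Ttr, the transthyretin gene of the neighbouring choroid plexus, was above 1000 CPM in 1 Nj and 1 jj library without light and in 2 Nj and 3 jj libraries with light. Titles of the libraries begin with J13, J14 or J15 in untreated Nj pups, with J17 in untreated jj pups and with J18 in both treated groups. What this prefix stands for is not stated, and outside the comparison of treated jj with treated Nj pups, prefix and group cannot be told apart.

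Taken member by member, the untreated Nj libraries stood lowest. Of the 38 members, 13, 13, 6, 7 and 9 lay above their own mean of the 20 libraries in untreated Nj libraries 1 to 5. The counts were 27, 25, 21, 24 and 7 in jj pups without light. They were 21, 22, 14, 30 and 29 in Nj and 15, 20, 22, 28 and 24 in jj pups with light. Untreated jj library 5 was the exception outside untreated Nj, with 7 members above their mean. The median member deviated from its 20-library mean, on the log2 scale, by -0.21 to -0.07 and by -0.16 to 0.12 in Nj and jj pups without light. With light these ranges were -0.07 to 0.15 in Nj and -0.02 to 0.16 in jj pups. The groups overlap. In whole tissue, a change in the number of microglia and a change in RNA per microglial cell cannot be told apart.

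**Figure D1:**
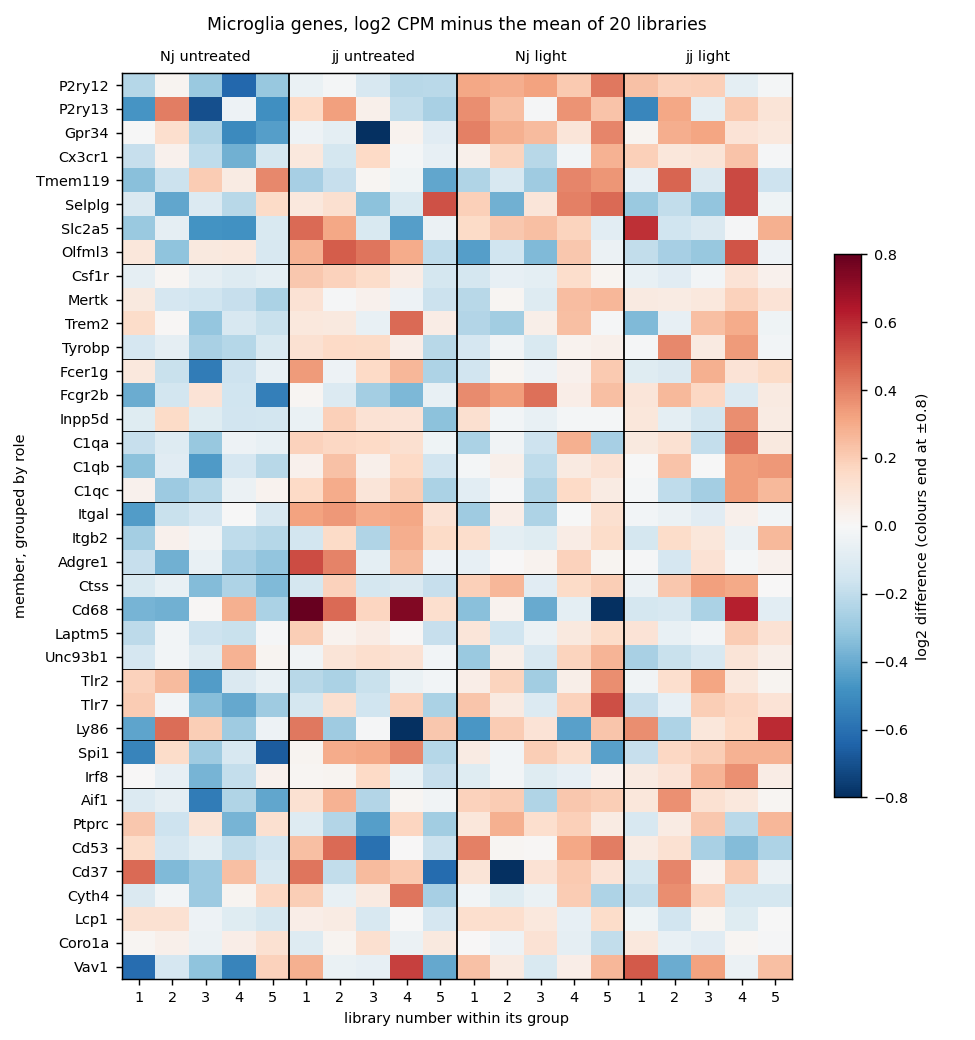
Each row is a member, grouped by role, and each column a library, in the order of the groups; colour gives log2 CPM minus that member's mean over the 20 libraries. The 5 untreated Nj columns are mostly blue, with 6 to 13 of 38 members above their mean, and P2ry12 and Gpr34 are red in all 5 treated Nj columns.

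The light comparison in Nj pups asks what phototherapy does to microglia genes without jaundice. P2ry12, Fcgr2b, Ctss and Aif1 rose, by between 1.29-fold (Ctss) and 1.5-fold (P2ry12), and 0 members fell. These 4 are 10.5% of the 38 members, against 1.49% of all 15272 genes called higher and 4.00% called in either direction (edgeR quasi-likelihood, adjusted over all genes by the method of Benjamini and Hochberg, threshold 0.05). Of the members, 33 of 38 had a positive log2 fold change (86.8%, against 50.3% of all genes), with a median of 0.15 against 0.00 for all genes. An unadjusted p under 0.05 was found for 11 members, all higher (28.9%, against 18.1% of all genes in either direction and 8.25% higher).

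P2ry12, the purinergic receptor that draws microglial processes toward released ADP, stood at 5.88, 7.39, 7.40, 7.76 and 9.24 CPM in untreated Nj and at 10.5, 11.1, 11.3, 11.4 and 12.2 CPM in treated Nj pups. Every treated Nj library lay above every untreated one. The log2 fold change was 0.58 (SE 0.10, edgeR adjusted p = 0.00267), and it was 0.71 (adjusted p = 0.000515) when untreated Nj pups of other prefixes than J15 were left out. P2ry12 was the only member whose groups did not overlap here (2.63% of members, against 3.07% of genes with treated pups higher throughout); 3.39% of genes had treated pups lower throughout, and 0 members did.

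Fcgr2b, the inhibitory Fc receptor for IgG, stood at 2.97, 3.28, 3.88, 3.92 and 4.66 CPM in untreated and 4.498, 5.12, 5.46, 5.62 and 5.88 CPM in treated Nj pups (log2 0.51, SE 0.12, adjusted p = 0.022). The groups overlap through the highest untreated and the lowest treated library. Fc receptors for IgG are similar in sequence, and how reads shared between them were counted is not stated; Fcgr3a was at 1.57 ± 0.24 and 1.77 ± 0.40 CPM (SD, n = 5, log2 0.18, adjusted p = 0.684). With J15 pups alone as untreated Nj group Fcgr2b missed the threshold (log2 0.47, adjusted p = 0.064).

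Ctss, a lysosomal protease that also trims the chain guarding MHC class II, stood at 11.9, 12.0, 12.9, 14.03 and 14.7 CPM in untreated and 14.4, 16.99, 17.4, 17.5 and 18.4 CPM in treated Nj pups (log2 0.37, SE 0.09, adjusted p = 0.028). A single treated library reached into the untreated range. Aif1, which encodes the actin-binding marker protein Iba1, stood at 7.07, 7.82, 8.82, 9.67 and 9.91 CPM in untreated Nj pups. In treated Nj pups 4 libraries lay between 11.9 and 12.1 CPM and library 3 at 8.85 (log2 0.39, SE 0.11, adjusted p = 0.0486).

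**Figure D2:**
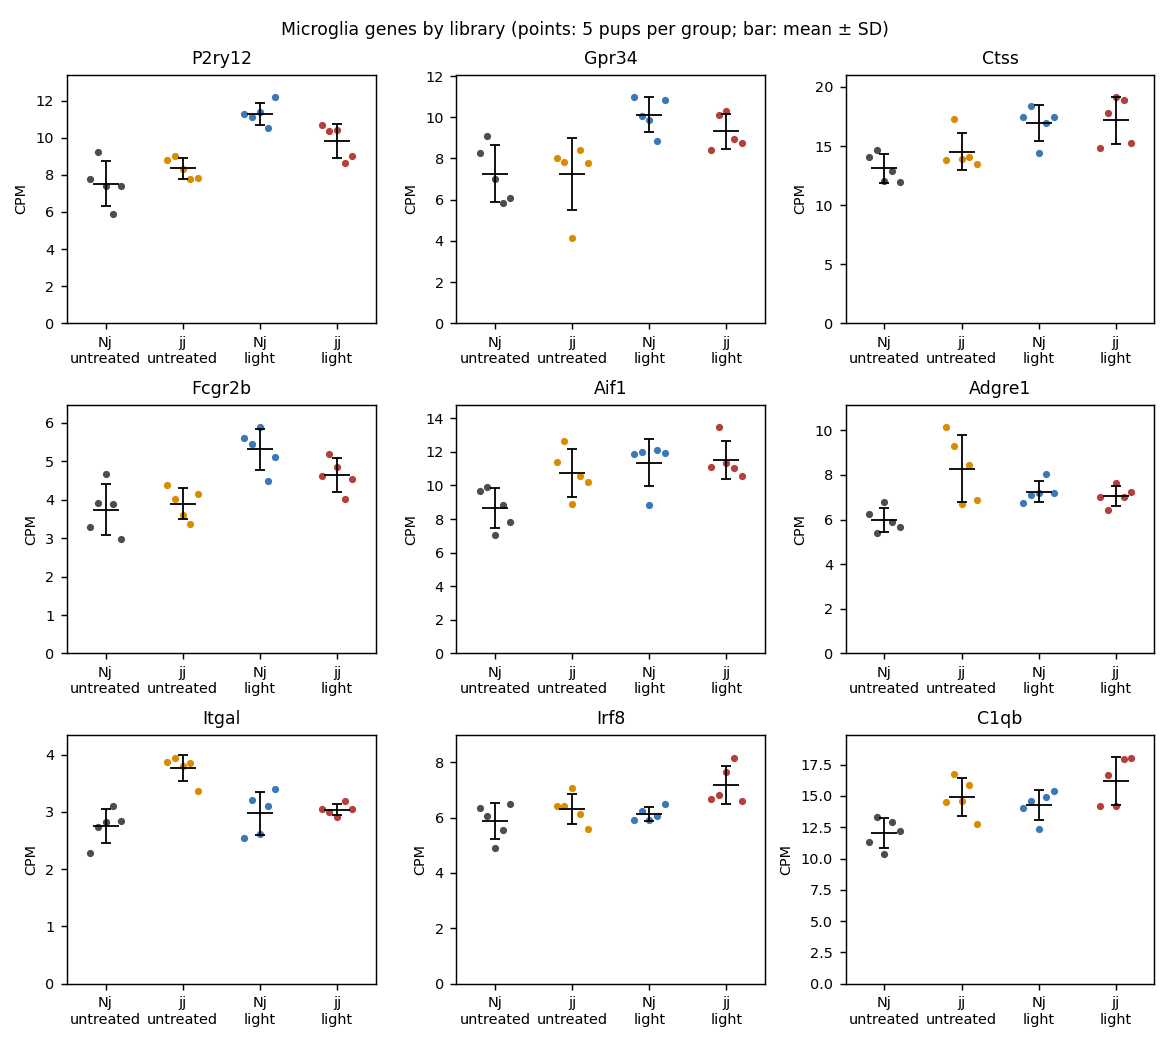
CPM of 9 members by group, a point per library with the mean and SD: the 5 members called in a comparison and the members with the lowest p in comparisons without a call. P2ry12 runs from 5.88 to 9.24 CPM in untreated Nj and from 10.5 to 12.2 CPM in treated Nj pups, and Itgal is highest in untreated jj pups at 3.36 to 3.95 CPM.

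These 4 calls did not hold equally. Without the libraries above 1000 CPM of Ttr, which left 4 untreated and 3 treated Nj pups, P2ry12 alone passed (log2 0.54, adjusted p = 0.0439). Fcgr2b had a larger fold change there (log2 0.61, adjusted p = 0.0609), and Ctss (0.28, 0.22) and Aif1 (0.27, 0.273) had smaller ones. Leaving out single libraries changed the count too: 1 member remained called without untreated Nj library 4 or 5 or treated Nj library 2, and 2 without untreated Nj library 3 or treated Nj library 1 or 5. P2ry12 passed in each of these fits. Aif1 also missed the threshold with no count filter (adjusted p = 0.0581), with the Nj groups fitted alone (0.0575), with newer quasi-likelihood estimates (0.0502) and with a covariate for Y-linked Kdm5d (0.0688).

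Other receptors at the microglial surface stood higher without passing. Gpr34, a receptor for lysophosphatidylserine, was at 7.26 ± 1.40 CPM in untreated and 10.1 ± 0.86 CPM in treated Nj pups (SD, n = 5, log2 0.47, SE 0.15, adjusted p = 0.068). P2ry13, a further ADP receptor and neighbour of P2ry12, was at 2.20 ± 0.73 and 3.00 ± 0.30 CPM (log2 0.44, SE 0.19, adjusted p = 0.218). Slc2a5, the fructose transporter that microglia carry, had a log2 fold change of 0.42 (SE 0.17, adjusted p = 0.185) and Cx3cr1, the receptor of the neuronal chemokine fractalkine, one of 0.23 (SE 0.09, adjusted p = 0.184). Tmem119, a microglia-typical membrane protein, stood at 2.29 ± 0.45 and 2.29 ± 0.53 CPM (log2 0.00, SE 0.18). Over the 8 surface members the median was 0.37 with 7 positive, the highest median of the 9 role groups.

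Of the listed members, 8 overlap the span of another protein-coding gene in RefSeq. P2ry12 and P2ry13 overlap that of Med12l, and Gpr34 that of Cask on the opposite strand. The others are Unc93b1 (Aldh3b1), Ly86 (Tpi1l2), Cd37 (Tead2 and Slc6a16), Lcp1 (Lrrc63) and Dock2 (Insyn2b). The strand setting of the counting is not stated, so reads of such partners cannot be told apart with certainty. Med12l stood at 31.7 ± 1.81 CPM in untreated and 33.4 ± 3.05 in treated Nj pups (log2 0.07, adjusted p = 0.597), and Cask at 57.4 ± 4.95 and 58.8 ± 6.05 CPM (log2 0.04, adjusted p = 0.90).

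The growth factor and uptake receptors moved little in Nj pups. Csf1r was at 41.9 ± 1.38 CPM in untreated and 43.1 ± 3.33 CPM in treated pups (log2 0.04, SE 0.06, adjusted p = 0.804). Trem2, a lipid-sensing receptor, had a log2 fold change of 0.05 (SE 0.14) and its signalling adaptor Tyrobp one of 0.12 (SE 0.10), and the group median was 0.08 with 4 of 4 positive. The 3 chains of complement C1q, which tags synapses for removal, gave 0.06 (C1qa), 0.25 (C1qb) and 0.08 (C1qc), none past the threshold. Among adhesion genes Adgre1, the F4/80 antigen, had 0.28 (SE 0.11, adjusted p = 0.151).

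Of the remaining named members, Cd68, a lysosomal glycoprotein of phagocytes, stood at 1.51 ± 0.32 CPM in untreated and 1.31 ± 0.35 CPM in treated Nj pups (log2 -0.20, SE 0.24). Spi1 had a log2 fold change of 0.27 (SE 0.17) and Irf8 one of 0.06 (SE 0.09). Tlr7, an endosomal sensor of single-stranded RNA, had 0.34 (SE 0.14, adjusted p = 0.201), and Ptprc, the pan-leukocyte phosphatase CD45, 0.15 (SE 0.13). Coro1a, an actin regulator that neurons express too, was at 145 ± 6.07 and 138 ± 10.8 CPM (log2 -0.07, SE 0.05). Members that did not pass ranged from -0.20 (Cd68) to 0.47 (Gpr34).

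**Figure D3:**
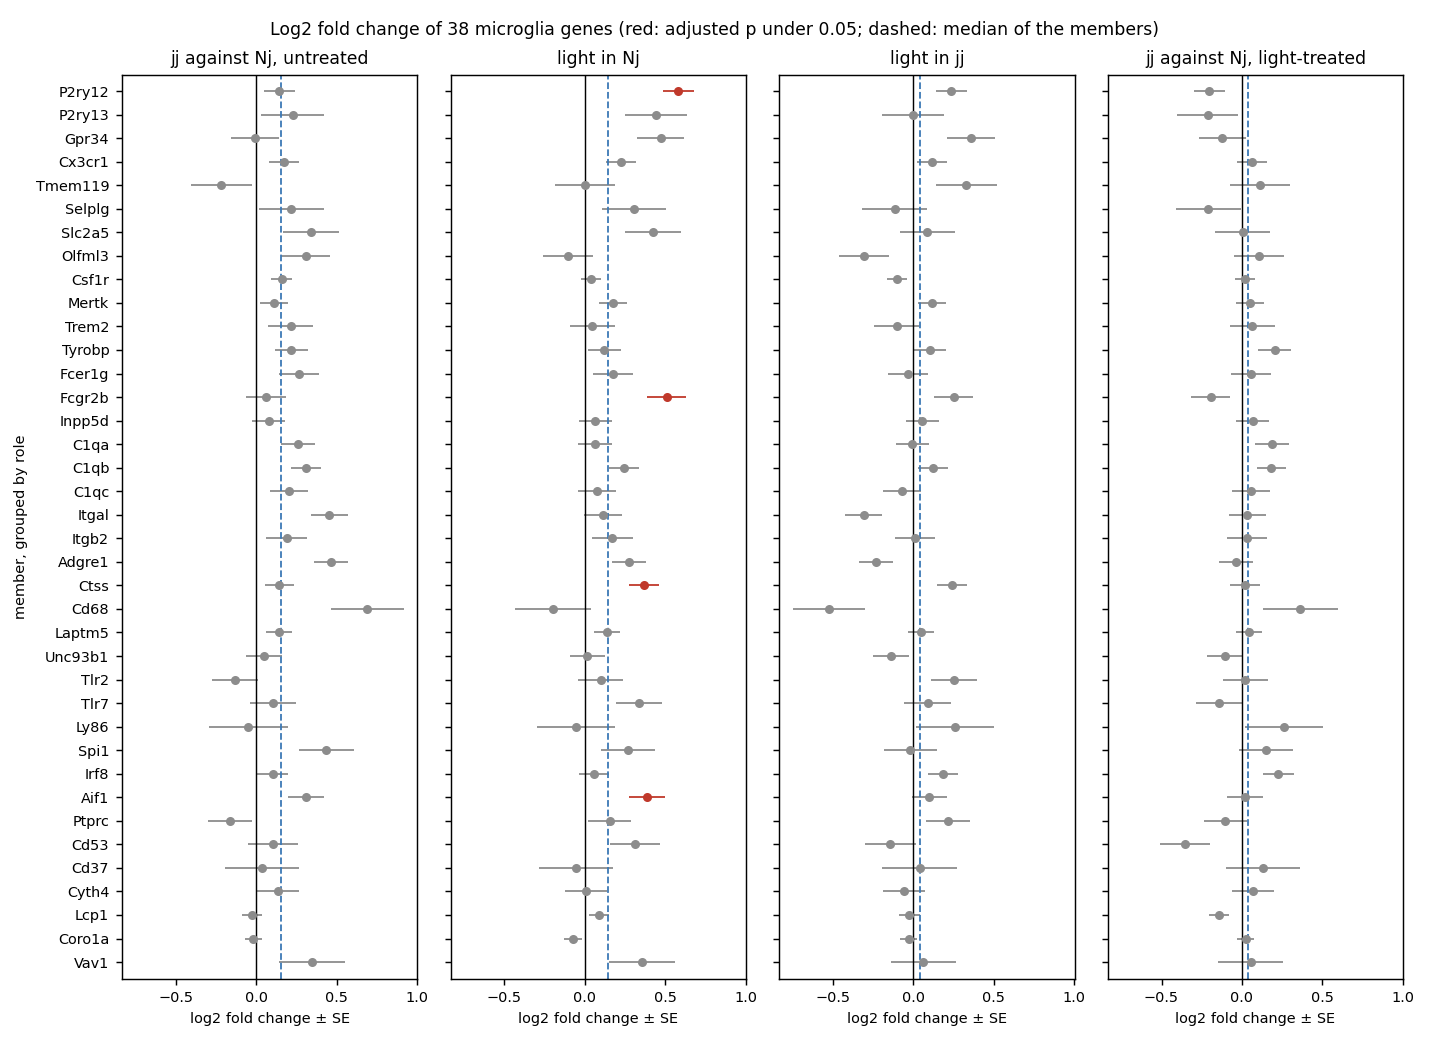
Log2 fold change with SE of the 38 members in 4 comparisons, red where the adjusted p is under 0.05, with the median of the members dashed. The median is 0.15 for untreated jj against untreated Nj and for light in Nj, and 0.04 for light in jj and for treated jj against treated Nj; red points appear for light in Nj.

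In jaundiced pups light gave 0 calls among the 38 members by edgeR, against 0.164% of all genes called in either direction and 0.0393% called higher. An unadjusted p under 0.05 was found for 6 members (15.8%, against 13.0% of all genes), 3 of them higher (5.64% of all genes). DESeq2 called 271 genes, of them 0 members, but gave an adjusted p to only 22 members. The median log2 fold change was 0.04, with 21 of 38 positive (55.3%, against 49.8% of all genes). P2ry12 stood at 7.80, 7.84, 8.32, 8.79 and 9.02 CPM in untreated and at 8.63, 9.01, 10.4, 10.4 and 10.7 CPM in treated jj pups (log2 0.24, SE 0.10, adjusted p = 0.297). Treated jj pups thus overlapped the untreated ones in 2 of 5 libraries. Ctss was at 14.52 ± 1.59 and 17.2 ± 2.01 CPM (log2 0.24, SE 0.09, adjusted p = 0.257) and Gpr34 at 7.25 ± 1.76 and 9.31 ± 0.85 CPM (log2 0.36, SE 0.15, adjusted p = 0.30). Fcgr2b (log2 0.25, SE 0.12) and Aif1 (log2 0.10, SE 0.11) did not pass either.

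The lowest p in jaundiced pups belonged to a member that stood lower under light. Itgal, the integrin chain of LFA-1 on leukocytes, was at 3.36, 3.81, 3.85, 3.87 and 3.95 CPM in untreated and at 2.91, 3.00, 3.05, 3.06 and 3.19 CPM in treated jj pups (log2 -0.31, SE 0.11, adjusted p = 0.246). Its ranges were apart, which held for 1 of 38 members and for 1.69% of genes in that direction; 1.27% of genes and 0 members had treated jj pups higher throughout. Cd68 (log2 -0.52, SE 0.23, adjusted p = 0.328) and Adgre1 (log2 -0.23, SE 0.11, adjusted p = 0.361) also had negative values without passing. Markers of border macrophages and of the meninges were on the same side in this comparison. The 9 tested border macrophage markers had a median of -0.43 with 1 of 9 positive, and both with an unadjusted p under 0.05 were lower. The 12 tested meninges markers had a median of -0.47 with 2 of 12 positive, and 6 had an unadjusted p under 0.05, 0 of them higher. Neither list had a call by edgeR or DESeq2 here, and their part in the values of Itgal, Cd68 and Adgre1 was not tested.

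Whether light acted differently in the 2 genotypes was tested by the interaction term. Of the members 0 passed by edgeR or DESeq2, and 3 had an unadjusted p under 0.05 (7.89%, against 3.41% of all genes), 0 of them positive (1.67% of all genes). Adgre1 had the lowest p, with a difference of -0.51 on the log2 scale between the light effect in jj and in Nj pups (SE 0.15, adjusted p = 1). P2ry12 had -0.35 (SE 0.14) and Itgal -0.42 (SE 0.16), with the same adjusted p. A negative interaction value was found for 31 of 38 members (median -0.14), while 51.3% of all genes were positive. The interaction also uses the untreated Nj libraries, which stood low for most members. It is therefore not independent of the light comparison in Nj pups. So the light effect on P2ry12 passed in Nj and not in jj pups, but the difference between them did not pass.

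Untreated jj pups were set against untreated Nj pups to ask what jaundice does without light. Here 0 of 38 members passed by edgeR or DESeq2, as did 0 of 15272 genes by edgeR. An unadjusted p under 0.05 was found for 10 members, all higher in jj pups (26.3%, against 6.36% of all genes in either direction and 3.69% higher). The median log2 fold change was 0.15 with 31 of 38 positive (81.6%, against 51.0% of all genes). This comparison and that of light in Nj pups share the untreated Nj libraries, which stood low for most members. The 2 sets of values are therefore not independent. The interaction term and both averages use these libraries as well.

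Adgre1 and Itgal had the lowest unadjusted p-values of the members in untreated jj pups. Adgre1 stood at 5.40, 5.67, 5.88, 6.23 and 6.78 CPM in Nj and at 6.69, 6.87, 8.43, 9.31 and 10.1 CPM in jj pups (log2 0.47, SE 0.11, adjusted p = 0.775). Its groups overlapped by the lowest jj library. Itgal stood at 2.28, 2.74, 2.83, 2.84 and 3.10 CPM in Nj pups and at the 3.36 to 3.95 CPM given above in jj pups (log2 0.45, SE 0.11, adjusted p = 0.775). C1qa, the A chain of C1q, ran from 11.5 to 13.8 CPM in Nj and from 13.9 to 16.1 CPM in jj pups (log2 0.26, SE 0.10). Itgal and C1qa were the 2 members with ranges apart (5.26%, against 0.478% of genes with jj pups higher throughout), and neither passed. Jaundiced pups were lower throughout for 0 members and 0.524% of genes.

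C1qb had a log2 fold change of 0.31 (SE 0.09) and C1qc one of 0.20 (SE 0.12), so all 3 chains were positive. Cd68 had the largest value of the list, 0.69 (SE 0.23), from 1.51 ± 0.32 CPM in Nj and 2.42 ± 0.70 CPM in jj pups. Spi1 had 0.44 (SE 0.17), Aif1 0.31 (SE 0.11), Tyrobp 0.22 (SE 0.10), Trem2 0.21 (SE 0.14) and Csf1r 0.16 (SE 0.06), none past the threshold. P2ry12, which rose under light, was at 0.14 (SE 0.10) here, Gpr34 at -0.01 (SE 0.15), Fcgr2b at 0.06 (SE 0.12) and Ctss at 0.14 (SE 0.09). Tmem119 had the lowest value, -0.22 (SE 0.19), and Ptprc stood at -0.16 (SE 0.14).

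Among light-treated pups jj was compared with Nj within a single title prefix. Of the members 0 passed by edgeR or DESeq2, and 4 had an unadjusted p under 0.05 (10.5%, against 6.62% of all genes), 1 of them higher (3.79% of all genes) and 3 lower. Irf8, an interferon regulatory factor needed for microglial development, had the lowest p. It stood at 5.93, 5.93, 6.05, 6.25 and 6.50 CPM in treated Nj and at 6.62, 6.66, 6.83, 7.66 and 8.17 CPM in treated jj pups (log2 0.23, SE 0.09, adjusted p = 0.724). The ranges of Irf8 were apart, as for 0.596% of genes with jj pups higher, while 0 members and 0.609% of genes had jj pups lower throughout. P2ry12 stood lower in treated jj than in treated Nj pups (log2 -0.20, SE 0.09, adjusted p = 0.724). The median of the members was 0.04 with 27 of 38 positive (71.1%, against 51.2%), and C1qa (0.19, SE 0.10) and C1qb (0.18, SE 0.09) had values of the same sign as without light.

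Averaged over both genotypes, light raised 5 members and lowered 0 (13.2% called higher, against 4.35% of all genes called higher and 10.1% in either direction). P2ry12 rose by 0.41 on the log2 scale (SE 0.07, adjusted p = 0.000918), Gpr34 by 0.42 (SE 0.10, adjusted p = 0.0131) and Fcgr2b by 0.38 (SE 0.09, adjusted p = 0.00728). Ctss rose by 0.30 (SE 0.07, adjusted p = 0.00493) and Aif1 by 0.24 (SE 0.08, adjusted p = 0.0484). Without the libraries above 1000 CPM of Ttr the count was 1, P2ry12 (log2 0.44, adjusted p = 0.0202). Fcgr2b stood at 0.43 (adjusted p = 0.0509), Gpr34 at 0.32 (0.0995), Ctss at 0.24 (0.12) and Aif1 at 0.14 (0.448) there, and the median of the members was 0.04. An unadjusted p under 0.05 was found for 11 members (28.9%, against 24.6% of all genes), 10 of them higher (11.3% of all genes). The median of the members was 0.10 with 29 of 38 positive (76.3%, against 50.4%). Cd68 had the lowest value, -0.36 (SE 0.16, adjusted p = 0.173). Markers of other brain cells passed in this comparison as well: 7 of 12 of neurons (6 higher, 1 lower), 5 of 12 of astrocytes (4 higher, 1 lower) and 2 of 10 of endothelium (Kdr and Esam, both lower). In Nj pups alone light called 4 of 12 astrocyte markers (3 higher, 1 lower) and 1 of 12 neuron markers (Tubb3, lower). The list medians in the average were 0.11 for neurons, 0.05 for astrocytes and -0.01 for endothelium, against 0.10 for the microglia genes. Their part in the microglia values was not tested.

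Averaged over both treatments, jj pups showed 0 members past the threshold by edgeR or DESeq2 and 9 at an unadjusted p under 0.05, all higher (23.7%, against 11.2% of all genes in either direction and 5.67% higher). The median was 0.10 with 28 of 38 positive (73.7%, against 52.4%). C1qb had the lowest p. It stood at 12.0 ± 1.20 and 14.3 ± 1.18 CPM in untreated and treated Nj and at 14.9 ± 1.51 and 16.2 ± 1.92 CPM in untreated and treated jj pups (log2 0.25, SE 0.07, adjusted p = 0.408). Cd68 (0.53, SE 0.16), Spi1 (0.29, SE 0.12) and Tyrobp (0.21, SE 0.07) were among the others. The purinergic members had values near 0, with -0.03 (SE 0.07) for P2ry12 and 0.01 (SE 0.14) for P2ry13.

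None of the members not yet described passed in any comparison. Among surface genes, Olfml3, a secreted matrix protein, stood at 10.98 ± 1.33 CPM in untreated Nj and 13.6 ± 2.32 CPM in untreated jj pups (log2 0.31, SE 0.15, adjusted p = 0.775), and at 10.2 ± 1.89 and 11.01 ± 2.82 CPM with light. Selplg, the ligand of P-selectin, had log2 values of 0.31 for light in Nj and -0.12 for light in jj pups. Mertk, a receptor for the uptake of dying cells, stood at 14.2 ± 1.27 CPM in untreated and 16.02 ± 2.35 CPM in treated Nj pups (log2 0.18, SE 0.09, adjusted p = 0.285). It was at 15.3 ± 1.12 and 16.6 ± 0.58 CPM in untreated and treated jj pups, so all 4 group means of Mertk lay within 14.2 to 16.6 CPM.

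Fcer1g, the signalling chain of Fc receptors, was at 0.27 (SE 0.12) for untreated jj against Nj and at 0.18 (SE 0.12) for light in Nj pups on the log2 scale. Inpp5d, a lipid phosphatase that dampens receptor signalling, stayed between 0.06 and 0.08 in those 2 comparisons and in both others between single groups. Itgb2, the beta chain that pairs with Itgal, had 0.19 (SE 0.13) in untreated jj and 0.17 (SE 0.13) for light in Nj pups. None of these passed.

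Of the endosomal and toll-like members, Laptm5, a lysosomal membrane protein of leukocytes, had 0.14 (SE 0.08) both for untreated jj against Nj and for light in Nj pups. Unc93b1, which carries Tlr7 to endosomes, had 0.05 and 0.02, while Tlr7 had 0.11 and 0.34. Tlr2, a sensor of bacterial lipopeptides, had 0.25 (SE 0.14, adjusted p = 0.466) for light in jj pups, and Ly86, which partners a toll-like relative, stood near 1 CPM with 12 to 40 counts a library. Ly86 had an SE of 0.24 on the log2 scale, the largest of the 38 members in the comparison of untreated pups.

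Among leukocyte genes Cd53, a tetraspanin, had the lowest value in treated jj against treated Nj pups, -0.35 (SE 0.16, adjusted p = 0.724), after 0.31 (SE 0.16, adjusted p = 0.286) for light in Nj pups. Lcp1, an actin bundler, had -0.14 (SE 0.06, adjusted p = 0.724) in treated jj against treated Nj pups and 0.09 (SE 0.06) for light in Nj pups. Vav1, an exchange factor of immune receptors, had 0.35 (SE 0.21) and 0.36 (SE 0.20) for untreated jj against Nj and for light in Nj pups. Cyth4 (0.13 and 0.01) and Cd37 (0.04 and -0.05) stood closer to 0 in the same comparisons.

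Other genes of microglial biology were grouped by function. Of 26 further genes of homeostatic microglia 21 were tested, and Fcrl2, an Fc receptor-like gene, rose under light in Nj pups, from 49.3 ± 3.84 to 57.8 ± 1.34 CPM (SD, n = 5, log2 0.23, SE 0.06, adjusted p = 0.0288). Averaged over genotypes, Fcrl2 (log2 0.15, adjusted p = 0.0185) and Havcr2, the checkpoint receptor Tim-3 (log2 0.41, adjusted p = 0.0326), rose. The list medians were 0.07 for light in Nj, in jj and in the average, against 0.00 for all genes.

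Genes of activated microglia showed 0 calls out of 15 tested in any of the 7 comparisons by edgeR or DESeq2, and at most 1 gene had an unadjusted p under 0.05 in a comparison. The medians were 0.07 with 13 of 15 positive for untreated jj against Nj and 0.03 with 8 of 15 positive for light in Nj pups. For jj averaged over treatments the median was 0.08 with 14 of 15 positive. Of all genes 51.0%, 50.3% and 52.4% were positive in these comparisons. The list includes Apoe, Lpl, Spp1 and Gpnmb, and Itgax, Clec7a and Cst7 were below the filter. Of 20 inflammatory genes 11 were tested, since the cytokines Il1b, Il1a, Tnf, Il6, Ccl2, Ccl4 and Cxcl10 and the genes Nos2 and Cd80 did not reach the filter. Ptgs2, the cyclooxygenase that neurons express as well, rose in the average over genotypes (log2 0.30, adjusted p = 0.0387). Of the others 0 passed in any comparison by edgeR or DESeq2, with at most 2 genes at an unadjusted p under 0.05. The inflammatory list had a median of 0.19 with 9 of 11 positive for untreated jj against Nj. For light in Nj pups its median was 0.05 with 7 of 11 positive. The 10 tested genes of the complement cascade beyond C1q had 0 calls by edgeR or DESeq2 and at most 2 genes with an unadjusted p under 0.05 in a comparison, with medians of 0.28 for untreated jj against Nj and 0.05 for light in Nj pups.

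Ligands of the receptors above were tested too. Il34, a neuronal ligand of Csf1r, stood at 17.3 ± 1.94 CPM in untreated and 24.6 ± 1.33 CPM in treated Nj pups and rose (log2 0.50, SE 0.09, adjusted p = 0.00706). Cx3cl1, the fractalkine that binds Cx3cr1, stood at 229.9 ± 19.2 CPM without and 273.1 ± 18.1 CPM with light and rose as well (log2 0.25, SE 0.06, adjusted p = 0.0174). The other Csf1r ligand, Csf1, had a log2 value of -0.12 (adjusted p = 0.541). Of the 10 ligand and niche genes 2 rose and 0 fell in this comparison, against 1.49% of all genes called higher. The same 2 rose in the average over genotypes, against 4.35% of all genes, and DESeq2 called Sirpa there too. For light in jj pups edgeR gave 0.22 for Cx3cl1 (SE 0.06, adjusted p = 0.0896) and 0.20 for Il34 (SE 0.09, adjusted p = 0.367). DESeq2 called Cx3cl1 in jj pups.

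Markers of other macrophages and of blood cells were set beside these values. Border macrophage markers, led by Mrc1, Stab1 and Lyve1, had 0 calls of 9 tested in every comparison by edgeR or DESeq2, and at most 2 genes with an unadjusted p under 0.05. Their summed level ran from 38.6 to 61.3 CPM without and from 35.6 to 77.6 CPM with light in Nj pups. In jj pups it ran from 40.8 to 75.0 CPM without and from 39.1 to 61.9 CPM with light. Their median log2 fold change was 0.28 with 7 of 9 positive for untreated jj against Nj, and -0.14 with 3 of 9 positive for light in Nj pups. In the first comparison they thus stood on the same side as Adgre1, Itgal and C1q, and their part in those values was not tested. Under light in Nj pups the median had the opposite sign to that of the microglia genes.

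Monocyte and neutrophil markers were near the detection limit. Of 13 rows, Ly6c, Elane and Fpr1 had 0 counts in all libraries, S100a8 had at most 8 and S100a9 at most 10 counts, and the summed level ran from 2.90 to 6.20 CPM over all libraries. Of 12 lymphocyte rows 2 were tested, Cd4 and Lck, and Cd3e had at most 4 counts in a library. For untreated jj against Nj the 2 tested rows had a median of 0.20 (1 of 2 positive), with 1 at an unadjusted p under 0.05, higher. For light in jj pups it was -0.31 (0 of 2), with 1 at an unadjusted p under 0.05, lower. The 3 tested monocyte and neutrophil markers had 0.32 (3 of 3) and 0.03 (2 of 3) there. Neither list had a call by edgeR or DESeq2, and their part in the values of Itgal was not tested. Red blood cell markers had 0 calls of 9 tested by edgeR (DESeq2 called Slc4a1 in the average over genotypes, and at most 1 gene had an unadjusted p under 0.05), with medians of -0.16 for untreated jj against Nj and -0.17 for light in Nj pups. Meninges markers had 0 calls of 12 by edgeR, with medians of 0.30 and -0.22 in those comparisons. Up to 6 of them had an unadjusted p under 0.05 (light in jj), and DESeq2 called Col1a1 and Slc6a13 in the average over genotypes. Choroid plexus markers had 0 calls of 13 and 0 at an unadjusted p under 0.05 by edgeR, and 0 calls by DESeq2. Their medians were 0.37 for untreated jj against Nj and 0.41 for light in Nj pups. They were 1.03 for light in jj and 1.14 for treated jj against treated Nj pups. In each of these comparisons 13 of 13 were positive. The part of these tissues in the microglia values was not tested beyond leaving out the libraries rich in Ttr.

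**Figure D4:**
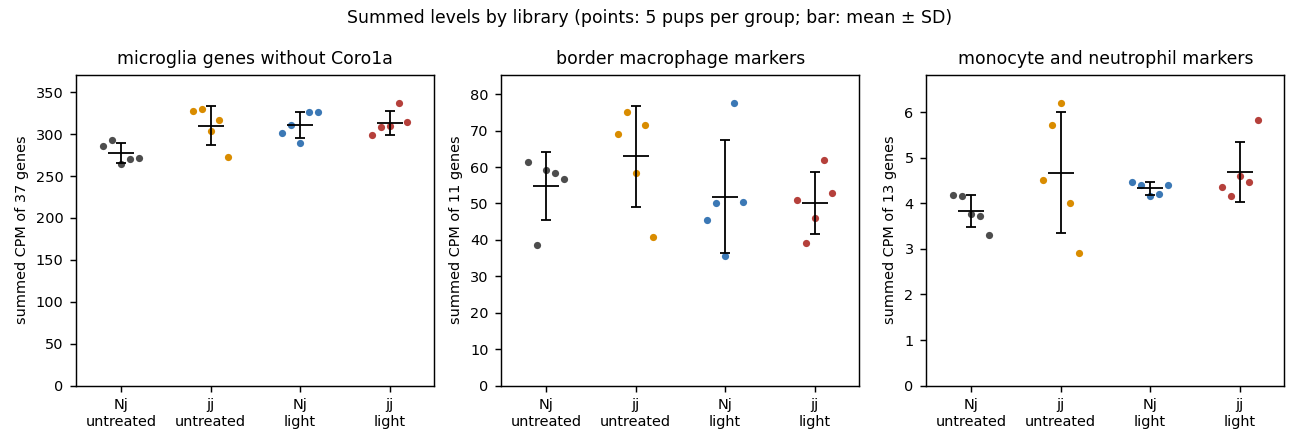
Summed CPM by library, with mean and SD per group, of 37 microglia genes without Coro1a, of 11 border macrophage markers and of 13 monocyte and neutrophil markers. The microglia sum runs from 264.5 to 293.2 CPM in untreated Nj and from 289.8 to 326.9 CPM in treated Nj pups, while the border macrophage sums of all groups overlap.

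Summed over the 37 members other than Coro1a, whose neuronal share is unknown, the level was 277.3 ± 12.0 CPM (SD, n = 5) in untreated Nj, 309.9 ± 23.3 in untreated jj, 311.0 ± 15.96 in light-treated Nj and 313.7 ± 14.2 in light-treated jj pups. Untreated Nj pups ran from 264.5 to 293.2 CPM and untreated jj pups from 272.6 to 329.7 CPM. The 3 groups other than untreated Nj differed in their means by less than 1 SD of any of them. No test was run on this sum, since the members were listed with earlier results of these data known.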

How the data were processed

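PolyA libraries of hippocampus from 20 pups, 5 per group, were analysed from the deposited table of raw read counts per rat Ensembl gene, which carries no normalization. Per the submitters' processing notes the authors used FastQC, TopHat2 2.0.13, Subread and edgeR; the notes name a mouse build although the identifiers are of rat, and rat build and strand setting are not given in the sources used here. Groups came from the labels. Counts were filtered with filterByExpr by group and scaled by TMM. All libraries were fitted in 1 model with edgeR 4.0.16 in R 4.3.3 (robust quasi-likelihood, legacy estimates, group means). The 7 contrasts were tested two-sided and adjusted by Benjamini-Hochberg over 15272 genes, with 0.05 as the threshold. Totals were 16882652 to 27112749 counts before scaling, CPM use the TMM-scaled totals, and SE are on the log2 scale. Each listed member is accounted for: members past the threshold, those with the lowest p in a comparison and a fixed set by role are given with values. Members and lists were chosen with earlier results of these data known. Alternatives were DESeq2 1.42.0, its size factors, other count filters, newer estimates, the compared groups alone, the J15 libraries, a covariate for Y-linked Kdm5d above 10 CPM, at most 1000 CPM of Ttr, and leaving out each library. The fit was run on simulated data with planted changes larger than those of most members, so smaller changes were not covered. Promoter sequences are from RefSeq (GRCr8). Some results of the further lists are not reported here.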

Additional observations from a re-analysis of the deposited data

Results flagged for a closer look

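Of 152 sets of 5 libraries (38 members in 4 groups), 15 had a library whose gap to its nearest neighbour was large against the range of its group; chance flags about 1 in 20 such sets. In untreated Nj, library 2 was the highest for Csf1r (44.3 CPM, next 41.6) and Inpp5d (10.2 CPM, next 8.57). In untreated jj, Gpr34 was lowest in library 3 (4.13 CPM, next 7.79), Ctss highest in library 2 (17.3 CPM, next 14.1) and Trem2 highest in library 4 (5.27 CPM, next 4.07). Library 5 of untreated jj was the lowest for C1qa (13.9 CPM, next 15.6) and Itgal (3.36 CPM, next 3.81). In treated Nj, Aif1 was lowest in library 3 (8.85 CPM, next 11.9), Cd37, a tetraspanin of leukocytes, lowest in library 2 (0.79 CPM, next 1.67) and Inpp5d highest in library 1 (9.99 CPM, next 9.05). In treated jj, library 4 was highest for Cd68 (2.52 CPM, next 1.55), Selplg (2.57 CPM, next 1.74) and Olfml3 (15.9 CPM, next 10.9). Aif1 was highest in library 2 (13.5 CPM, next 11.3) and Spi1 lowest in library 1 (2.27 CPM, next 2.90).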

How the results depend on the processing

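No paired analysis was possible because replicate numbers were given in accession order and link no pups of different groups. The 5 comparisons without a called member (3 of single groups, the interaction and the average over treatments) had 0 calls under every alternative run. For light in Nj the 4 called members became 1 without the libraries above 1000 CPM of Ttr, and for light averaged over genotypes 5 became 1; fewer libraries remain there. The other alternatives gave 3 to 5 in the first and 4 to 5 in the second. Leaving out 1 library gave 1 to 6 for light in Nj: 1 without untreated Nj 4 or 5 or treated Nj 2, and 2 without untreated Nj 3 or treated Nj 1 or 5. It gave 4 to 7 for the average. P2ry12 kept its call in all fits of both comparisons (for light in Nj log2 0.51 to 0.71, highest adjusted p = 0.0439). For light in Nj, Ctss lost its call on 6 of 10 such omissions (highest adjusted p = 0.0882), Aif1 in 7 (0.137) and Fcgr2b in 3 (0.0775); all kept their direction. In the average Aif1 lost its call in 15 of 20 (0.0966), the others in 0. The median of the members stayed between 0.14 and 0.20 for untreated jj against Nj and between 0.08 and 0.19 for light in Nj. For light in jj it ran from -0.01 to 0.07 and for treated jj against Nj from -0.03 to 0.06, so these 2 have no settled sign.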
